A study of Mus musculus with 899 samples.

Results

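Circulating miRNA was measured in plasma of C3H mice 2 days after whole thorax irradiation and compared with plasma of sham irradiated C3H mice bled on the same day. The samples were chosen by their titles, which give the strain (title groups G2 and G4), the time point and the treatment. They comprise 48 of the 899 samples of the series, 32 from irradiated and 16 from sham mice. Each sample came from a different mouse, and every mouse also had a sample from 14 days before irradiation. Irradiated mice were gnotobiotic C3Hf/Sed/Kam animals that received a single X-ray dose of about 14 Gy to the thorax under ketamine and xylazine, with lead over the rest of the body. Males were 8 to 10 and females 10 to 12 weeks old, so that sex and age cannot be told apart. Each title group held 8 irradiated and 4 sham females and 8 irradiated and 4 sham males. What distinguishes G2 from G4 is not given in the sources used here. The question addressed by the comparison is which circulating miRNA differ in the first days after the irradiation.

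A miRNA is a short RNA that is cut from a hairpin precursor and lowers the translation and stability of mRNAs that pair with its seed, the bases 2 to 8 from the 5′ end. Cells release miRNA into blood in vesicles, bound to proteins or when they die, and several miRNA are made mainly in one kind of cell. Among them are miR-150-5p in mature lymphocytes, miR-142a-5p and miR-142a-3p throughout the blood lineages, miR-122-5p in hepatocytes, miR-375-3p in pancreatic islets and other endocrine epithelium, and the erythroid miR-451a. The miR-34 family is transcribed under control of p53, the factor that responds to DNA damage. In plasma, fewer cells of a type and less RNA released per cell cannot be told apart.

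Sequences of the miRNA on which the results turn are given first, because several of them share a seed or differ by a single base. Mature sequences and positions were taken from RefSeq (GRCm38.p6) for 21 of the 24 miRNA called below, and the host genes from the annotation of the same build. Sequences of miR-150-5p, miR-375-3p and miR-122-5p were not used. Seeds are in capitals.
miR-155-5p: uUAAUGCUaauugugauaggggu
miR-142a-5p: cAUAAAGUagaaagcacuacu
miR-142a-3p: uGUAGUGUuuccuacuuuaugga
miR-34c-3p: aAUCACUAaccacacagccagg
miR-34b-3p: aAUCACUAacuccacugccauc
miR-34a-5p: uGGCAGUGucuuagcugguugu
miR-192-5p: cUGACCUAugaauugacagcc
miR-202-3p: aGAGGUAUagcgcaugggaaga
miR-103-3p: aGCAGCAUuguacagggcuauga
miR-107-3p: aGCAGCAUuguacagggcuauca
miR-99a-5p: aACCCGUAgauccgaucuugug
miR-100-5p: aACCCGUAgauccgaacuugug
miR-146a-5p: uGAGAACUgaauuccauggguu
miR-146b-5p: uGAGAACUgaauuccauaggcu

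Of the called miRNA, 4 pairs share a seed. Positions are counted from 1 at the 5′ end. The pair miR-103-3p and miR-107-3p differs at G22C and the pair miR-99a-5p and miR-100-5p at U16A. From miR-146b-5p to miR-146a-5p the changes are A18G and C21U. Reads of these near-identical miRNA can be assigned to either member, and how the authors' counting divided them is not given, so that their separate values are uncertain. The seed shared by miR-34c-3p and miR-34b-3p is followed by 5 differing bases. Their precursors lie on chromosome 9 (chr9:51103034-51103110 and chr9:51103562-51103645, minus strand), with the starts of the mature sequences 530 bases apart, in a stretch with no other annotated gene on that strand.

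The libraries held between 930319 and 5838543 counts (median 1543387). The 483 miRNA that passed a filter on low counts held 99.99% of the reads. All levels are given as log2 CPM, where CPM is the share of a miRNA in its library after scaling of library sizes, in reads per 1000000. The most abundant miRNA was miR-16-5p, which is plentiful in red cells, with 46.4% of the reads in irradiated and 40.4% in sham samples. It was followed by miR-21a-5p, the pair miR-486a-5p and miR-486b-5p, whose reads cannot be told apart, and miR-25-3p. None of these 5 was called. Irradiated samples held a read of fewer miRNA (474.7 ± 38.3, n = 32) than sham samples (525.8 ± 56, n = 16; permutation test of the means, adjusted p = 0.0046). This number depends on depth, and log2 total counts had means of 20.5 in irradiated and 20.9 in sham samples (permutation test, unadjusted p = 0.0499, adjusted p = 0.0624). The red blood cell list, described below, held 58.7% ± 7.4 of the reads in irradiated samples (range 40.7 to 71.9%) and 51.0% ± 8.6 in sham samples (range 28.8 to 65.1%; permutation test, adjusted p = 0.00517). An index of hemolysis, log2 of miR-451a over miR-23a-3p, had means of 0.417 and 0.535 (permutation test, adjusted p = 0.621). The 4 sham males of G2 had totals of 1521376, 3216385, 3863732 and 5838543. They were low in several of the miRNA below and high in others, such as miR-99a-5p.

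By the quasi-likelihood test of edgeR, with p-values adjusted after Benjamini and Hochberg over all miRNA tested, 24 of the 483 miRNA (4.97%) differed between irradiated and sham mice at an adjusted p under 0.05. Of these, 8 (1.66%) were higher and 16 (3.31%) lower in irradiated mice. The split depended on scaling, since DESeq2's size factors in the same test gave 11 higher and 13 lower. Quantile normalization together with limma gave 10 and 11. The median log2 fold change was 1.15 among the higher and -0.98 among the lower miRNA, against -0.0284 over all 483. The lower group was led by miRNA of lymphocytes and other leukocytes, and the higher group by both 3p miRNA of the miR-34b and miR-34c genes and by miR-375-3p. For 9 of the 24 the call depended on 1 library. Without the 1 sham male of G2 that had the least miR-150-5p, 16 were called, 15 of them among the 24, and without all 4 sham males of G2 10 were called, 9 of them among the 24. The 9 were miR-150-5p, miR-155-5p, miR-142a-5p, miR-142a-3p, miR-34c-3p, miR-34b-3p, miR-34a-5p, miR-375-3p and miR-122-5p, and the other 15 no longer passed without the 4 males. Among those 15, miR-146b-5p, miR-146a-5p, miR-103-3p, miR-107-3p, miR-31-5p, miR-99a-5p and miR-100-5p then had log2 fold changes between -0.71 (miR-107-3p) and -0.13 (miR-99a-5p). Over all mice miR-99a-5p had -0.83, with -1.40 in the G2 males and between -0.56 and -0.20 in the other combinations of sex and title group. The 4 sham males of G2 were thus high in miR-99a-5p. Without the 1 sham male that had the least miR-150-5p, miR-146b-5p, miR-103-3p, miR-107-3p, miR-99a-5p, miR-31-5p, miR-146a-5p, miR-100-5p, miR-340-5p and miR-30e-3p no longer passed. In the same 48 mice before irradiation, edgeR called 0 of 483 (0%), with 26 at an unadjusted p under 0.05, and limma-voom also called 0. Some called miRNA already had a difference of the same sign then, such as miR-103-3p (-0.40), miR-107-3p (-0.65), miR-350-3p (-0.46), miR-340-5p (-0.25) and miR-672-3p (0.50). These did not pass (edgeR, adjusted p from 0.682 to 0.924). The sign was the opposite for miR-34c-3p (-0.17), miR-192-5p (-0.33), miR-202-3p (-0.43), miR-146b-5p (0.17), miR-146a-5p (0.06), miR-744-5p (-0.06) and miR-150-5p (0.006).

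**Figure D1:**
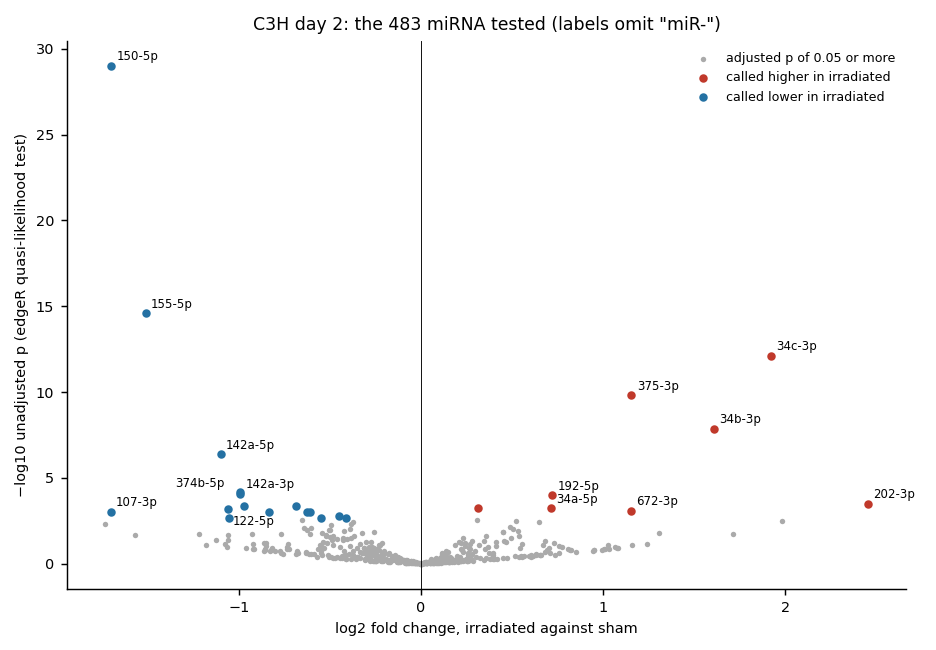
Each point is a miRNA of C3H plasma at day 2, placed by its log2 fold change (x axis) and the −log10 of its unadjusted edgeR p (y axis). The 8 miRNA called higher are red and the 16 called lower blue. miR-150-5p and miR-155-5p stand highest on the left, and miR-34c-3p and miR-375-3p on the right.

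The miRNA with the smallest p was miR-150-5p, which restrains the transcription factor Myb during lymphocyte maturation. In sham mice it ranged from 10.97 to 14.32 log2 CPM with a median of 13.47, and in irradiated mice from 11.12 to 12.66 with a median of 11.62. The irradiated mice lay close together (SD 0.33) and the sham mice spread widely (SD 0.83). The ranges overlapped at the sham males of G2. Of these, 1 had 10.97, below every irradiated mouse, although it had 13.76 before treatment. The other 3 sham males of G2 had 12.05, 12.43 and 12.82, of which 12.05 and 12.43 lay within the irradiated range. The log2 fold change of miR-150-5p was -1.70 ± 0.14 (SE; edgeR, adjusted p = 4.56e-27). Without the low sham male it was -1.72, and without all 4 sham males of G2 -1.87. It was -2.06 in the G2 females, -1.93 in the G4 females, -1.93 in the G4 males and -0.46 in the G2 males. Relative to its own earlier sample, miR-150-5p was lower in 32 of 32 irradiated mice and in 9 of 16 sham mice.

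Next came miR-155-5p (chr16:84714143-84714165, plus strand, an exon of Mir155hg), which is induced when lymphocytes and macrophages are activated. Sham mice ranged from 5.91 to 7.07 log2 CPM (median 6.37) and irradiated mice from 3.21 to 6.14 (median 4.89). Of the irradiated mice, 30 of 32 were below every sham mouse, and the sham mice lay close together (SD 0.37). The log2 fold change was -1.51 ± 0.19 (SE; edgeR, adjusted p = 6.26e-13), with -0.97 in the G2 males and between -2.03 and -1.44 elsewhere. This is a low-count miRNA, with a median of 49.5 reads in irradiated and 150 in sham libraries.

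Both arms of the Mir142 hairpin (chr11:87756864-87756927, plus strand, an intron of Mir142hg) were lower. The 5p arm, miR-142a-5p, had a median of 11.5 in sham mice (9.95 to 12.3) and 9.91 in irradiated mice (8.67 to 11.97), and 17 of the irradiated mice were below every sham mouse. Its log2 fold change was -1.10 ± 0.22 (SE; edgeR, adjusted p = 3.25e-05). For the 3p arm, miR-142a-3p, sham mice ranged from 6.86 to 10.5 with a median of 9.14 and irradiated mice from 5.97 to 10.1 with a median of 8.0. The groups overlapped over most of that range, and the log2 fold change was -0.99 ± 0.25 (SE; edgeR, adjusted p = 0.00521). The 4 sham males of G2 had 6.86 to 7.83, below all other sham mice, and the difference in the G2 males was 0.38 for miR-142a-3p and -0.20 for miR-142a-5p.

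**Figure D2:**
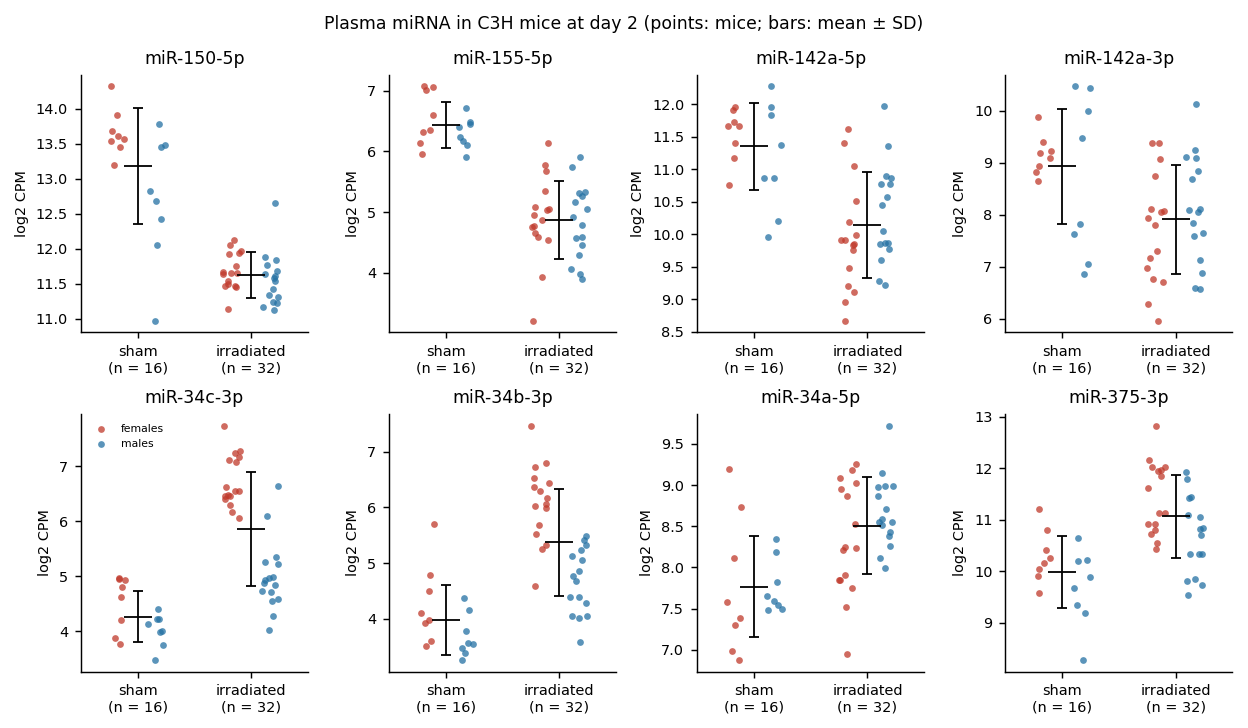
Levels of 8 miRNA in each C3H mouse at day 2, in log2 CPM (y axes), for 16 sham and 32 irradiated mice, with females in red and males in blue. Black bars are the mean ± SD of each group. The 1 sham male at 10.97 for miR-150-5p lies below all irradiated mice, and the irradiated females have the highest miR-34c-3p.

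The miRNA lists were chosen with earlier results of these data known, so counts of calls within them are no independent test. The lymphocyte and leukocyte list held 12 miRNA, 10 of which were tested. Of these, 5 were called lower and 0 higher, against 3.31% lower and 1.66% higher over all 483, and the median log2 fold change was -0.57 against -0.0284. The fifth called was miR-146a-5p, a feedback inhibitor of NF-κB signaling, at -0.45 ± 0.14 (SE; edgeR, adjusted p = 0.0409), which was lost without the low sham male (-0.45, adjusted p = 0.0666). The 5 that did not pass had values between -0.60 (miR-181a-5p) and -0.21 (miR-29a-3p), all negative. In the same 10 miRNA the median was -0.56 when each mouse was compared with its own earlier sample. Part of the list is not restricted to lymphocytes, and miR-29a-3p and miR-29b-3p are made in many tissues. Of the 9 tested miRNA of the myeloid list, 1 was called, miR-146b-5p, at -0.69 ± 0.19 (SE; edgeR, adjusted p = 0.0175), and without the low sham male it had -0.55 (adjusted p = 0.138). Its defining member miR-223-3p, the main miRNA of neutrophils, was 10.1 in both groups (log2 fold change -0.12, adjusted p = 0.82 by edgeR). In the red blood cell list 0 of 11 were called, 9 were positive and the median was 0.35. The smallest p there was that of miR-486b-3p, at 0.65 ± 0.22 (SE; edgeR, adjusted p = 0.0603), and the erythroid miR-451a had 0.14 (adjusted p = 0.855 by edgeR). In the platelet and megakaryocyte list 0 of 9 were called, with a median of -0.13. A fit of the 48 samples alone called 21 of the 24, and with the hemolysis index as a covariate all 24. The index had similar means in the groups (0.417 in irradiated and 0.535 in sham samples), so adjusting for it could not decide on hemolysis. The parts of hemolysis and of the larger red cell share in the results were not tested.

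Among the higher miRNA, miR-34c-3p had the smallest p. Sham mice ranged from 3.48 to 4.96 log2 CPM (median 4.21) and irradiated mice from 4.01 to 7.74 (median 6.12). Above every sham mouse were 23 of the 32 irradiated mice, among them all 16 females. The log2 fold change was 1.92 ± 0.26 (SE; edgeR, adjusted p = 1.25e-10), and in each mouse's own comparison miR-34c-3p was higher at day 2 in 32 of 32 irradiated and 11 of 16 sham mice. From the own earlier sample, miR-34c-3p rose by 2.53 ± 0.19 in irradiated and by 0.74 ± 0.25 in sham mice (SE). Both rises passed (edgeR with the mouse as a block, adjusted p = 1.13e-17 and 0.0285). For miR-34b-3p, sham mice had 3.26 to 5.70 (median 3.85) and irradiated mice 3.58 to 7.47 (median 5.33). In miR-34b-3p, 11 of the 32 irradiated mice were above every sham mouse, and the log2 fold change was 1.61 ± 0.28 (SE; edgeR, adjusted p = 1.33e-06). Against its own earlier sample, miR-34b-3p was higher in 30 of 32 irradiated and 15 of 16 sham mice, and sham mice rose by 1.03 (edgeR with the mouse as a block, adjusted p = 0.00872). The difference between the changes of miR-34b-3p, 1.25 ± 0.37 (SE), did not pass (edgeR, adjusted p = 0.0967). The opposite arms of both hairpins were read too, miR-34c-5p at 0.46 ± 0.24 (SE; edgeR, adjusted p = 0.317) and the sparsely read miR-34b-5p at 0.56 ± 0.59 (SE; edgeR, adjusted p = 0.703). Thus the 5p and 3p arms of one hairpin had different values, but the difference between arms was not tested.

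The third member called, miR-34a-5p (chr4:150068473-150068494, plus strand, intergenic), is the most abundant of the family in plasma. It had a median of 7.59 in sham mice (6.88 to 9.19) and 8.54 in irradiated mice (6.94 to 9.72), with 2 irradiated mice above every sham mouse. The ranges overlapped almost fully, although the irradiated mouse was the higher in 81.6% of all pairs of an irradiated and a sham mouse. The log2 fold change was 0.71 ± 0.21 (SE; edgeR, adjusted p = 0.0201). Sham mice were themselves higher at day 2 than before, in 15 of 16 mice. The log2 change from the own earlier sample of miR-34a-5p was 1.61 ± 0.24 in sham and 2.16 ± 0.17 in irradiated mice (SE; edgeR with the mouse as a block, adjusted p = 3.57e-06 and 5.19e-16). The difference between these changes, 0.56 ± 0.29 (SE), did not pass (edgeR, adjusted p = 0.562). Over the 6 tested of 10 miRNA of the miR-34 and miR-449 family, 3 were called higher and 0 lower, against 1.66% and 3.31% over all 483, and the median was 0.64. Its airway member miR-449a-5p had -0.36 (adjusted p = 0.757 by edgeR). As for the other lists, the count of calls in this family is no independent test.

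Of 8 other miRNA linked to p53, 1 was called higher and 2 lower, against 1.66% higher and 3.31% lower over all 483. The 2 lower differ by a single base, so that they may not be separate signals. The higher was miR-192-5p (chr19:6264857-6264877, plus strand, intergenic), which is abundant in gut, liver and kidney. Sham mice ranged from 10.4 to 13.0 (median 11.9) and irradiated mice from 11.4 to 13.5 (median 12.3), with 8 irradiated mice above all sham mice. Its log2 fold change was 0.72 ± 0.18 (SE; edgeR, adjusted p = 0.00545), or 0.61 without the 4 sham males of G2 (edgeR, adjusted p = 0.0859). Its neighbour miR-194-5p, which starts 199 bases away on the same strand, had -0.64 ± 0.24 (SE; edgeR, adjusted p = 0.117) and miR-215-5p, with the same seed as miR-192-5p, -0.25 ± 0.20 (SE; edgeR, adjusted p = 0.537). Members of this group therefore did not move one way. The 2 lower were miR-103-3p, at -0.61 ± 0.18, and miR-107-3p, at -1.70 ± 0.51 (SE; edgeR, adjusted p = 0.0241 for each), whose genes lie in introns of the pantothenate kinase genes Pank3, Pank2 and Pank1. For miR-107-3p the median count was 1.5 reads in irradiated and 5.5 in sham libraries, 14 irradiated libraries had no read, and it was 0.28 in the G2 females. Without the low sham male, miR-103-3p had -0.56 and miR-107-3p -1.24 (edgeR, adjusted p = 0.0654 and 0.243).

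Among miRNA of solid organs, miR-375-3p rose. Sham mice ranged from 8.28 to 11.2 log2 CPM (median 10.1) and irradiated mice from 9.55 to 12.8 (median 11.0), with 12 of 32 above every sham mouse. The log2 fold change of miR-375-3p was 1.16 ± 0.18 (SE; edgeR, adjusted p = 1.86e-08). It was between 0.96 and 1.26 in all 4 combinations of sex and title group. The 4 sham males of G2 had 8.28, 9.20, 9.34 and 9.67 for miR-375-3p, at the low end of the sham mice. Other miRNA of the pancreas list were tested in 5 cases and 0 were called. Of these, miR-7b-5p had -1.22 ± 0.51 and miR-7a-5p -0.25 ± 0.23 (SE; edgeR, adjusted p = 0.169 and 0.645), opposite in sign to miR-375-3p. The acinar miR-216a-5p had 0.20 (adjusted p = 0.844 by edgeR) and miR-217-5p -0.31 (adjusted p = 0.844 by edgeR). Hence the rise of miR-375-3p was not accompanied by a call of another miRNA of the list.

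The hepatocyte list had 1 call among 10, miR-122-5p, a count near the 4.97% over all 483. Its sham values ranged from 9.63 to 13.0 (median 10.9) and its irradiated values from 9.20 to 12.1 (median 10.5). With broad overlap, the log2 fold change was -1.06 ± 0.31 (SE; edgeR, adjusted p = 0.0213). The same mice already differed by -0.97 before irradiation, which did not pass (edgeR, adjusted p = 0.397). The call was lost by limma-voom (-0.79, adjusted p = 0.101) and by limma with quantile normalization (adjusted p = 0.109). In the G2 males the sign was the opposite, 0.78, the 4 sham males having 9.63 to 10.7. The median of the hepatocyte list was 0.07, and the abundant miR-148a-3p had 0.02 (adjusted p = 0.993 by edgeR).

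In the list for lung and airway epithelium 1 of 12 was called, a count near the 4.97% over all 483. This was miR-31-5p, an epithelial miRNA, at -0.62 ± 0.19 (SE; edgeR, adjusted p = 0.0241), or -0.51 without the low sham male (edgeR, adjusted p = 0.15). The miR-200 family members miR-200a-3p, miR-200b-3p, miR-141-3p and miR-429-3p had values between -0.16 and -0.03, and miR-200c-3p -0.77 ± 0.33 (SE; edgeR, adjusted p = 0.169). The list median was -0.10. In the list of heart and skeletal muscle 0 of 7 were called. Cardiac miR-208b-3p had 1.71 ± 0.72 and miR-499-5p 0.68 ± 0.35 (SE; edgeR, adjusted p = 0.169 and 0.317). The list of stroma and smooth muscle had 2 calls among 11, both lower, and 0 positive values, with a median of -0.30. Over all 483, 3.31% were called lower, 228 were positive and 252 negative. The 2 were miR-99a-5p, at -0.83 ± 0.25, and miR-100-5p, at -1.05 ± 0.34 (SE; edgeR, adjusted p = 0.0241 and 0.0468). Without the low sham male they had -0.51 and -0.63 (edgeR, adjusted p = 0.373 and 0.429). In the same list miR-199a-5p and miR-199b-5p had -0.61 ± 0.26 and -0.55 ± 0.32 (SE; edgeR, adjusted p = 0.169 and 0.393). Of the remaining miRNA that were to be named whatever their values, miR-335-5p had 0.46, miR-106a-5p -0.51, miR-18b-5p -0.35, miR-96-5p -0.93 and miR-802-5p 0.37, and none passed (edgeR, adjusted p from 0.131 to 0.606).

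In the remaining lists 1 miRNA was called, miR-202-3p. The let-7 family had 0 of 9 called but 9 negative values (median -0.30), and the miR-17 clusters 0 of 10 (median 0.10). The Dlk1-Dio3 imprinted cluster had 0 of 33 called (median 0.16), the neural list 0 of 8 (median 0.07) and the hypoxia list 0 of 2, with miR-210-3p at 0.03 (adjusted p = 0.977 by edgeR). Both tested members of the gonad list were positive. Their values are described by sex below.

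**Figure D3:**
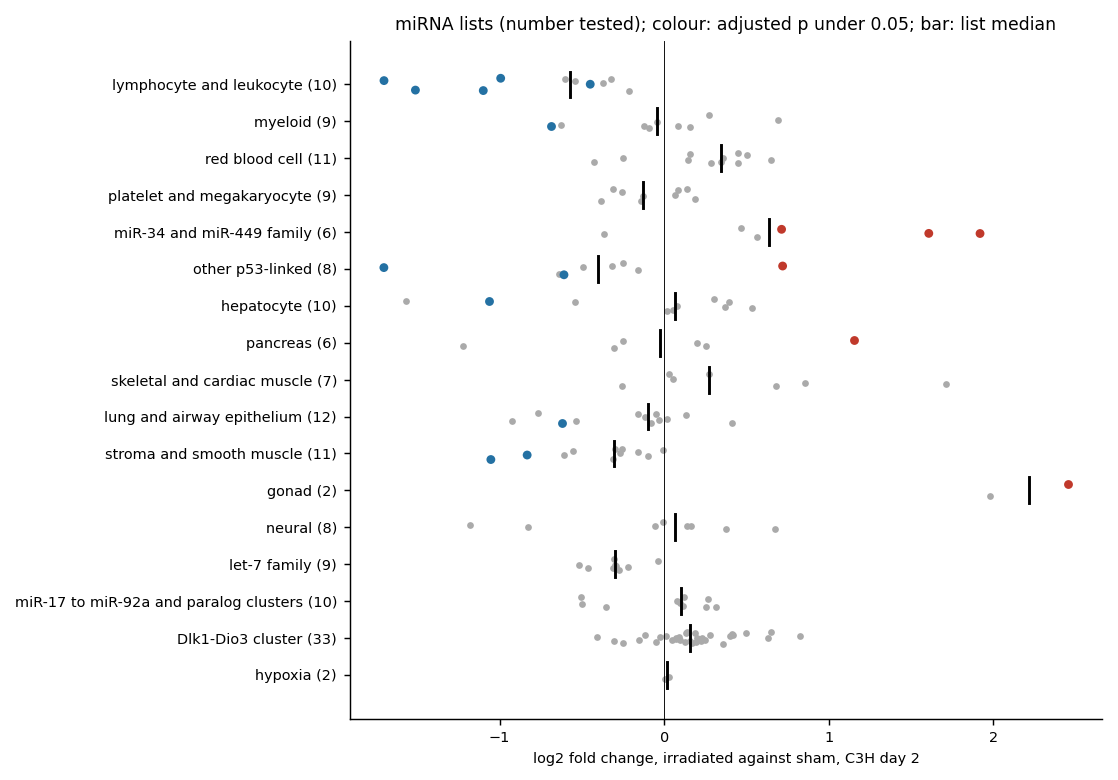
Log2 fold change of irradiated against sham C3H mice at day 2 (x axis) for the tested members of each miRNA list (rows, number tested in parentheses). Coloured points passed the test (red higher, blue lower) and bars are list medians. The lymphocyte and leukocyte list has 5 called members on the left, and the miR-34 and miR-449 family 3 on the right. The lists were chosen with earlier results of these data known.

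Called miRNA outside the lists were mostly lower. miR-374b-5p, from an intron of Ftx near the X inactivation centre, had a median of 5.53 in sham mice (4.02 to 6.39) and 4.57 in irradiated mice (3.11 to 5.77). Its log2 fold change was -0.99 ± 0.25 (SE; edgeR, adjusted p = 0.00478), and 10 irradiated mice were below all sham mice. miR-350-3p, from an intron of Cep170, had -0.97 ± 0.27 (SE; edgeR, adjusted p = 0.0175), with 23 of 32 irradiated mice below every sham mouse at a median of 12 against 24.5 reads. miR-340-5p, from an intron of Rnf130, had a smaller difference of -0.41 ± 0.13 (SE; edgeR, adjusted p = 0.0468) but little spread in sham mice (8.51 to 9.18), and 21 irradiated mice were below all of them. miR-30e-3p, from an intron of Nfyc, had -0.55 ± 0.18 (SE; edgeR, adjusted p = 0.0468), while miR-30e-5p of the same hairpin had 0.03 ± 0.11 (SE; edgeR, adjusted p = 0.955). The 2 higher were miR-744-5p, from an intron of Map2k4, at 0.31 ± 0.09 (SE; edgeR, adjusted p = 0.0201), and the X-linked miR-672-3p at 1.15 ± 0.34 (SE; edgeR, adjusted p = 0.0241). In miR-744-5p the sham mice spanned 8.95 to 9.96 and the irradiated mice 9.21 to 10.3, so that a small shift passed the test on a narrow spread. Without the 4 sham males of G2, miR-374b-5p (-0.83), miR-350-3p (-0.83), miR-744-5p (0.30) and miR-672-3p (1.00) did not pass (edgeR, adjusted p = 0.0704, 0.141, 0.1 and 0.183), nor did miR-340-5p and miR-30e-3p (-0.31 each, adjusted p = 0.351 and 0.602 by edgeR).

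The earlier sample of each mouse shows that sham mice did not stand still. With the mouse as a block, 160 of 483 miRNA (33.1%) differed between day 2 and the earlier sample in irradiated mice and 110 (22.8%) in sham mice. Of the 24 called miRNA, 17 changed from the own baseline in irradiated and 9 in sham mice. The change in irradiated mice differed from that in sham mice for 5 of 483 (1.04%) by edgeR, namely miR-150-5p, miR-155-5p, miR-34c-3p, miR-375-3p and miR-142a-5p. Their differences of change were -1.64 ± 0.21, -1.61 ± 0.25, 1.79 ± 0.32, 1.04 ± 0.23 and -1.20 ± 0.26 (SE; edgeR, adjusted p from 4.94e-08 to 0.00311). All 5 are among the 24, and the other 19 did not pass in this paired comparison, which adds the error of the earlier samples.

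Several miRNA called lower had risen in sham mice rather than fallen in irradiated mice. For miR-146b-5p, the log2 change from baseline was 1.28 ± 0.22 in sham and 0.30 ± 0.16 in irradiated mice (SE; edgeR, adjusted p = 2.13e-05 and 0.15), and it was higher than before in 16 of 16 sham mice. The pattern recurred in miR-374b-5p, miR-100-5p and miR-340-5p, whose rises in sham mice passed (0.77, 1.08 and 0.52) and whose changes in irradiated mice did not (-0.24, 0.48 and 0.22). The difference between the changes itself did not pass for miR-146b-5p, miR-374b-5p, miR-100-5p or miR-340-5p (edgeR with the mouse as a block, adjusted p = 0.056, 0.219, 0.688 and 0.562). Both groups rose in miR-31-5p, by 1.15 in sham and 0.52 in irradiated mice, and in miR-99a-5p, by 0.99 and 0.49. By contrast, miR-150-5p fell by 1.77 ± 0.12 and miR-155-5p by 1.39 ± 0.15 in irradiated mice (SE; edgeR, adjusted p = 1.29e-18 and 1.55e-11), while the sham changes of -0.13 and 0.22 did not pass.

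**Figure D4:**
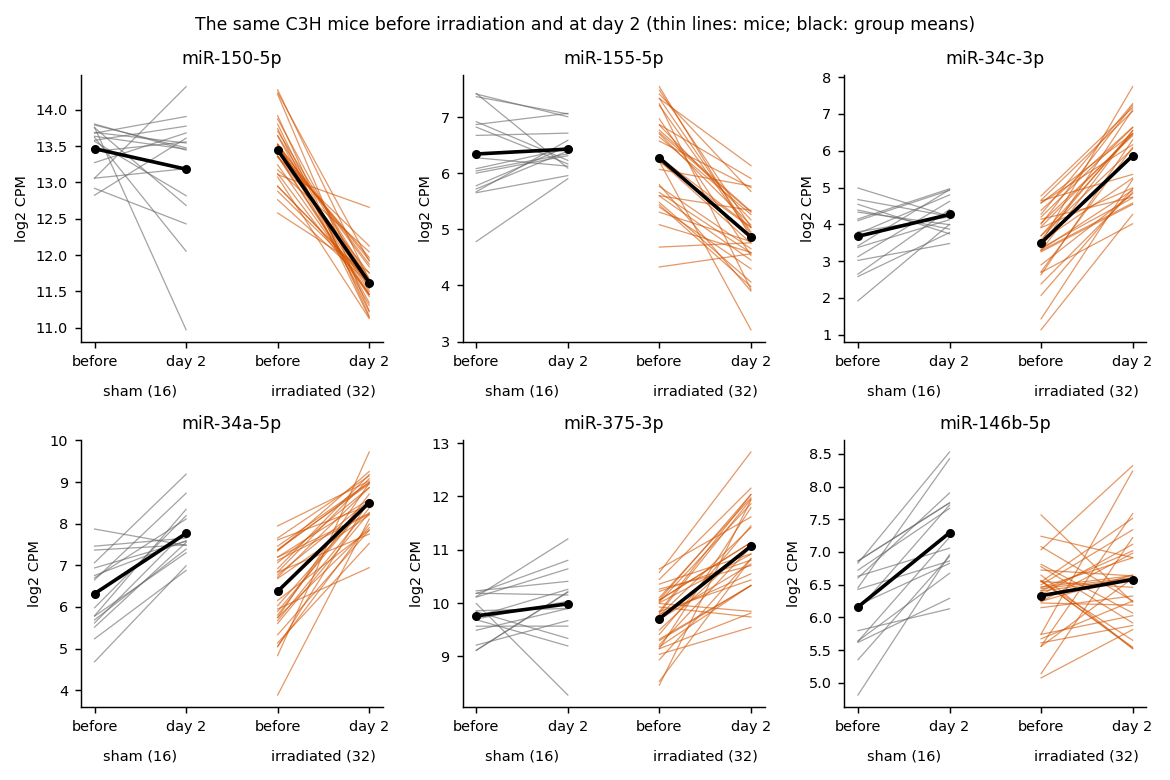
Levels of 6 miRNA in the same C3H mice before irradiation and at day 2, in log2 CPM (y axes), with 16 sham mice in grey, 32 irradiated mice in orange and group means in black. miR-150-5p was lower at day 2 in all 32 irradiated mice, miR-34a-5p was higher at day 2 in both groups, and miR-146b-5p was higher in all 16 sham mice.

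Sexes and title groups were compared next. Of the 24 called miRNA, 17 had the same sign in all 4 combinations of sex and title group. The signs differed in the G2 males for miR-142a-3p, miR-122-5p, miR-146a-5p and miR-202-3p, in the G4 males for miR-202-3p and miR-100-5p, in the G2 females for miR-107-3p and in the G4 females for miR-30e-3p. Within G2 alone 7 miRNA were called and within G4 alone 16, of which 6 and 14 were among the 24. The log2 fold changes in G2 and G4 were -1.26 and -1.93 for miR-150-5p, -1.36 and -1.74 for miR-155-5p, 1.71 and 1.75 for miR-34c-3p and 1.20 and 1.11 for miR-375-3p, all past the threshold. The title groups' effects differed in 0 of 483 miRNA (0%) by edgeR, with 14 at an unadjusted p under 0.05. limma-voom called 1, the pancreatic miR-216b-5p, at -3.33 for G4 minus G2 (adjusted p = 0.0225), named after its value was seen.

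For miR-34c-3p, sham females ranged from 3.78 to 4.96 and irradiated females from 6.05 to 7.74, without overlap, and sham males from 3.48 to 4.40 and irradiated males from 4.01 to 6.64. The difference of the log2 fold changes, female minus male, was 1.16 and did not pass (edgeR, unadjusted p = 0.00748, adjusted p = 0.516). For miR-150-5p it was -0.80 (edgeR, unadjusted p = 0.00415, adjusted p = 0.502), with the low sham males of G2 on the male side. Effects of sex passed the adjustment in 0 of 483 miRNA (0%) by edgeR, with 18 at an unadjusted p under 0.05. limma-voom called 1, miR-202-3p.

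The gonadal miR-202-3p had the largest unadjusted sex difference of the called miRNA. In females it was 1.92 to 3.79 in sham mice (median 2.76, n = 8) and 4.85 to 6.24 in irradiated mice (median 5.39, n = 16), without overlap. In males 4 of 8 sham and 13 of 16 irradiated libraries had no read, so that both groups were near the limit of detection. Over both sexes the log2 fold change was 2.46 ± 0.68 (SE; edgeR, adjusted p = 0.0158), and within females alone it was 2.62. The call over both sexes was lost by limma-voom (1.07, adjusted p = 0.244), without the 4 sham males of G2 (2.11, adjusted p = 0.127 by edgeR) and in an effect averaged over sex and title group (0.57, adjusted p = 0.82 by edgeR). The female minus male difference was 4.11 (edgeR, unadjusted p = 0.000299, adjusted p = 0.109), a fitted value that rests on a few reads in males, and by limma-voom 3.14 (adjusted p = 0.00376). For the other arm of the hairpin, miR-202-5p, sham females had 3.12 to 6.10 and irradiated females 4.79 to 9.22, and over both sexes its log2 fold change was 1.98 ± 0.68 (SE; edgeR, adjusted p = 0.0584). Both arms come from Mir202 (chr7:139957689-139957760, minus strand), inside the noncoding gene Gm2044.

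The day 2 values were set beside those of other C3H mice at day 5 and of C57Bl/6 mice at day 2, each set with its own 16 sham and 32 irradiated mice. At day 5 in C3H mice, 15 of 483 miRNA (3.11%) were called, and 7 of them were among the 24 of day 2, which is 46.7% of the first and 29.2% of the second list. The 7 were miR-150-5p, miR-155-5p, miR-142a-5p, miR-103-3p and the 3 called members of the miR-34 family. For miR-150-5p the log2 fold change was -1.29 ± 0.15 at day 5, and for miR-34a-5p it was 1.80 ± 0.22 (SE; edgeR, adjusted p = 1.48e-15 and 1.82e-13). The miRNA with the smallest adjusted p for a difference between the days among the 24 was miR-34a-5p, at -1.09 for day 2 minus day 5 (edgeR, adjusted p = 0.0692). The test of day 2 against day 5 gave 0 of 483 (0%) by edgeR, with 19 at an unadjusted p under 0.05, and 0 by limma-voom.

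In C57Bl/6 mice, which received nearly the same dose of about 14 Gy, 32 of 483 miRNA (6.63%) were called at day 2. They shared 12 with C3H mice, 50% of the C3H list and 37.5% of the C57Bl/6 list, and 23 of the 24 C3H miRNA had the same sign. The exception was miR-107-3p, at 0.21 (adjusted p = 0.902 by edgeR). The share with the same sign in both strains was not counted over all 483. The strains' effects differed in 3 of 483 miRNA (0.621%) by edgeR. One was miR-375-3p, where sham C57Bl/6 mice ranged from 8.79 to 10.30 and irradiated ones from 10.27 to 12.93. Its log2 fold change there was 2.37 ± 0.19 (SE), and the C3H minus C57Bl/6 difference was -1.21 ± 0.24 (SE; edgeR, adjusted p = 0.000278). The other 2, miR-486a-5p and miR-486b-5p, are red cell miRNA whose reads cannot be told apart, so that they amount to 1 signal counted 2 times, each with a difference of 0.93 ± 0.26 (SE; edgeR, adjusted p = 0.046), and neither was called within C3H mice. The arms of Mir142 had -0.32 (miR-142a-5p) and -0.07 (miR-142a-3p) in C57Bl/6 mice, but their strain differences of -0.78 and -0.92 did not pass (edgeR, adjusted p = 0.473 for each).

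**Figure D5:**
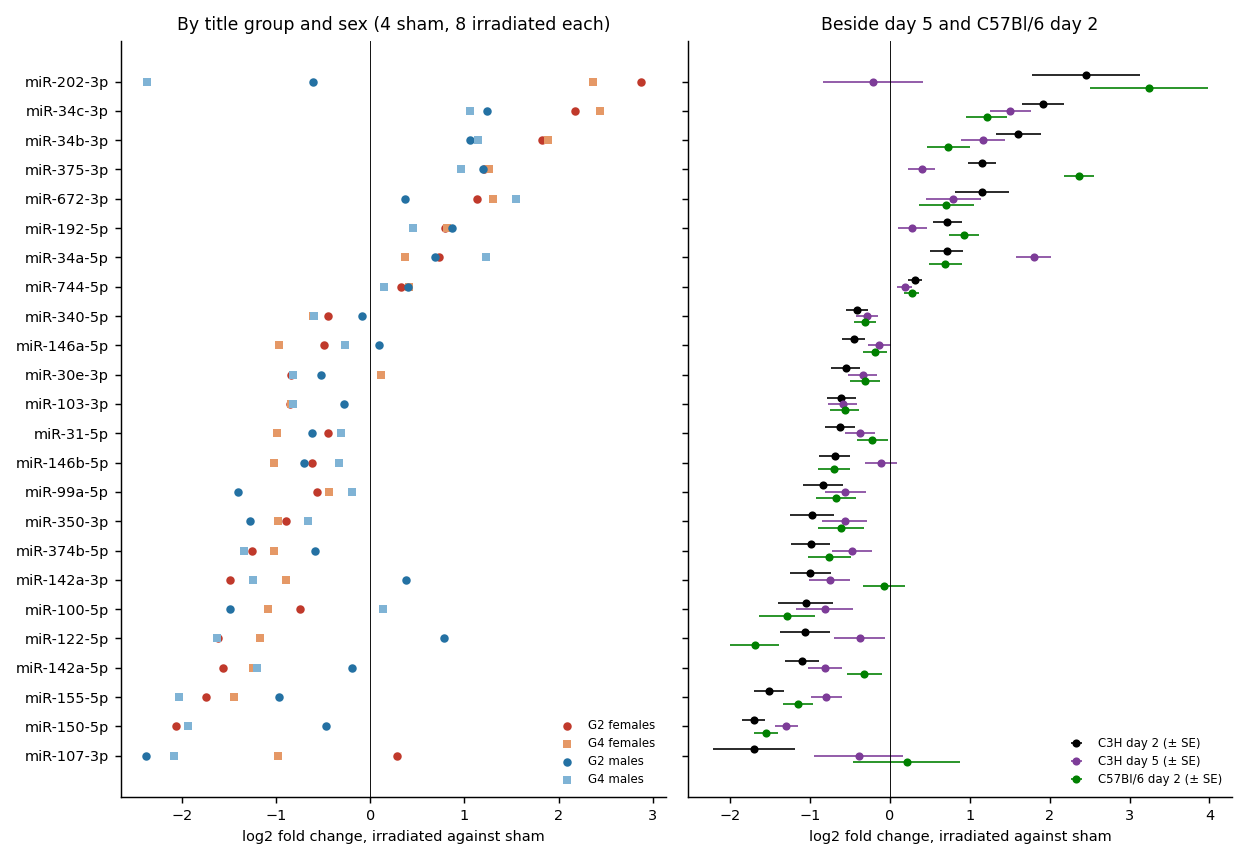
Log2 fold changes (x axes) of the 24 called miRNA (rows), on the left in each combination of title group and sex with 4 sham and 8 irradiated mice each, and on the right at C3H day 2, C3H day 5 and C57Bl/6 day 2 with SE bars. On the left the G2 males lie nearer to 0 than the other combinations for miR-150-5p, and miR-202-3p is positive in both female sets and negative in both male sets. On the right miR-375-3p is higher in C57Bl/6 mice than in C3H mice.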

How the data were processed

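Plasma miRNA was sequenced by the authors from 25 µL of plasma with a QIAseq library kit and 22 cycles of amplification. Plasma with hemolysis over a limit and runs with too few reads were left out by them. Reads were aligned to mouse miRNA (mm10, the same assembly as GRCm38) with Illumina's BaseSpace Small RNA application. The authors deposited raw counts for each mature miRNA and sample, not normalized. Whether molecular identifiers were counted, and the miRBase release, are not given in the sources used here, so counting intervals would cover counting error only.

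Groups were read from sample titles. Counts were scaled by TMM and tested in R 4.3.3 with edgeR 4.0.16 (quasi-likelihood F test, filterByExpr, 1 mean for each of 32 groups over all 899 samples, 867 residual degrees of freedom), with Benjamini-Hochberg adjustment over the 483 of 1915 miRNA tested and a threshold of 0.05. The main fit has no term for the mouse, so repeat samples of the same animal were treated as independent in the estimate of spread. Within the day 2 comparison each sample came from a different mouse. The log2 CPM values have a prior count of 2. Fits with limma 3.58.1 and DESeq2 1.42.0 were alternatives. The study's methods used limma and voom on quantile-normalized RPM, replaced here because raw counts were deposited. Library measures were compared by two-sided permutation tests (100000 resamples, scipy 1.17.1) with adjustment over 5 measures. The procedure was tested on simulated data without correlation between samples of the same mouse. There the main test recovered 74.2% of the planted changes, the mouse block 40.4% and the sex difference 36.7%. Few calls by the mouse block or for sex therefore do not show that effects were absent.

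The same mouse number in the titles marks the same animal before irradiation and at day 2. After removing group means, samples of the same mouse correlated at 0.181 on average over 115 abundant miRNA, against -0.00386 for different mice, and 30 of 48 pairs were over 0.1. The pairing comes from the labels, so the replicate block is reported beside the main result.

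The mice and the miRNA lists were chosen with earlier results of these data known. The text names every called miRNA, the 5 most abundant in sham mice, those the study names for early C3H plasma, and up to 4 examples of a list, by smallest p. Other list members named, such as miR-223-3p, miR-451a and members at the ends of a range, were chosen after their values were seen. Samples of tissues and of other time points were not described here, except as named. No 2 samples had identical values. Nothing in the sources says more on separate housing or processing days.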

Additional observations from a re-analysis of the deposited data

Results flagged for a closer look

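The irradiation effect on miR-375-3p differed between strains by a test of the difference itself. It was smaller in C3H than in C57Bl/6 mice, with a difference of -1.21 on the log2 scale (edgeR's test, adjusted p = 0.000278). What underlies the difference was not tested.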

How the results depend on the processing

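Of the 24 miRNA called, 4 passed the threshold in all 24 alternatives (miR-150-5p, miR-155-5p, miR-34c-3p and miR-375-3p), and no called miRNA but miR-202-3p changed sign in any. The count of 24 was 32 by limma-voom, 28 by DESeq2, 21 by limma with quantile normalization and 24 with DESeq2's size factors, and these lists held 19, 21, 18 and 21 of the 24. By limma-voom miR-122-5p, miR-202-3p, miR-672-3p, miR-99a-5p and miR-100-5p were lost (adjusted p from 0.0545 to 0.244). It was 39 with no filter on low counts. A fit of the 48 samples alone gave 36, with 21 of the 24, and in such fits it was 68 with sex and title group as covariates and 47 with the hemolysis index as covariate, each with all 24. Several fits with fewer mice gave lower counts, 7 within G2, 6 within males, 12 without the males of G4, 6 without the females of G2 and 10 without the females of G4. Sets of the same size differed, since 5 of the 24 passed within males and 16 within females, and 6 within G2 and 14 within G4. Of the alternatives chosen after seeing the data, leaving out the 4 sham males of G2 gave 10, leaving out the 1 with the least miR-150-5p 16, and an effect averaged over sex and title group 36. With the mouse as a fixed replicate block the count was 5, and with a random replicate block in limma-voom it was 32. miR-202-3p was -0.0021 within G4 and -1.49 within males. Before irradiation, no filter gave 15 calls in place of 0. The strain difference had 1 call (miR-375-3p) with DESeq2's size factors and 24 with no filter, in place of 3. Day 2 against day 5 gave 16 with no filter and 2 (miR-202-3p and miR-34a-5p) among the more abundant miRNA, in place of 0. The sex difference gave 1 (miR-202-3p) by limma-voom and 1 (miR-202-3p) among the more abundant miRNA, and the title group difference 1 by limma-voom and 2 with no filter (miR-1943-3p and miR-7035-3p, named after their values were seen). The hemolysis index differed by 0.00448 in medians and by -0.118 in means. The causes of these changes were not tested. At these depths, miRNA with a few reads, such as miR-107-3p and miR-202-3p in males, carry large errors.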
